A study of Mus musculus with 38 samples.

Results

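The genes described here are 9 enzymes of fatty acid oxidation in mouse microglia, chosen by symbol from the deposited sheet of raw counts: Acsl1, Cpt1a, Cpt2, Acadvl, Acadm, Acads, Hadha, Hadhb and Acox3. They are 9 of the 53801 genes in that sheet, and all 9 passed the low-count filter that left 11189 genes for testing. The series holds 38 RNA-seq libraries of sorted CD11b+ brain cells from C57BL/6J mice aged 3 months. All mice, controls included, were hemizygous for a human TREM2 BAC transgene and homozygous for a knocked-in transferrin receptor with a human part (hTfR KI). The transgene is a large human clone that spans TREM2 with its own control regions, and its transcript was not analysed here. DNL919, taken here to be the TREM2-activating antibody that the study calls ATV:TREM2, was given as 1 dose of 10 mg/kg, and 8 libraries each were collected on days 1, 4 and 7. ATV:DNP02, taken to be the study's ATV:ISO control antibody, was also given at 10 mg/kg and collected on day 1 (8 libraries). Vehicle libraries were of day 1 as well (6 libraries). Days 4 and 7 had no control of their own day here and were compared with those of day 1. Takedown was in 4 batches, and since each batch was of a single sex (females in 1 and 2, males in 3 and 4), sex cannot be told apart from batch. The tissue is given once as 2 forebrain regions (cortex, hippocampus) and once as whole brain less the cerebellum. The labels do not say that each library was a separate animal, so p-values measure the spread between libraries.

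A fatty acid is first activated to its acyl-CoA, then passed into mitochondria as a carnitine ester, and there shortened in repeated cycles of beta-oxidation. Each cycle starts with an acyl-CoA dehydrogenase matched to the chain length, and the next steps for long chains are carried out by the mitochondrial trifunctional protein. Peroxisomes run a parallel route that starts with acyl-CoA oxidases. In microglia, which take up lipid-rich myelin debris, this pathway is one way to burn the fatty acids stored in lipid droplets.

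The libraries held 1.65 to 6.42 M (mega) counts, and the DNL919 day 1 libraries were the deeper ones, with a median of 3.58 M against 2.24 M in ATV:DNP02. The 6 microglial marker genes together measured at least 4239 CPM (counts brought to a common library size, scaled by TMM, the trimmed mean of M values) in every library, and neuronal and endothelial markers at most 71.5 and 33.1 CPM. Oligodendrocyte markers (6 genes) summed to 76.7 to 269 CPM in ATV:DNP02 and 60.6 to 168 CPM on DNL919 day 1, and reached 509 CPM on day 7. Of 5 tested, 1 was called lower on day 1 against ATV:DNP02 (15% of all genes). From day 1 to day 4, 2 of the 5 were called higher (13.8% of all genes). Astrocyte markers (7 genes) summed to 195 to 314 CPM in ATV:DNP02 and 116 to 245 CPM on DNL919 day 1, and microglial markers to 7405 to 13583 CPM and 4239 to 12543 CPM. Most of the astrocyte sum was Slc1a3 (mean 253 CPM in ATV:DNP02 and 135 CPM on DNL919 day 1), while Gfap, Aqp4 and Aldh1l1, which define astrocytes more narrowly, reached at most 1.31 CPM in ATV:DNP02 and 5.80 CPM on DNL919 day 1. Markers of border-associated macrophages (7 genes) summed to 101 to 1079 CPM in ATV:DNP02 and 7.62 to 474 CPM on DNL919 day 1. Of these 7, 2 were called lower and 0 higher. Of the 6 microglial markers, 3 were called lower and 0 higher, where 15% of all genes were lower and 20.8% higher. Mean P2ry12 went from 4449 to 1634 CPM, Sall1 from 211 to 79.7 CPM and Tmem119 from 856 to 1005 CPM. The medians of Tmem119 were 688 CPM in ATV:DNP02 and 699 CPM on DNL919 day 1, where the highest library held 2864 CPM. Monocyte markers reached 3049 CPM in 1 library of day 7. Genes that do not encode proteins took 9.64% ± 2.24 of counts in ATV:DNP02 and 5.11% ± 1.46 on DNL919 day 1 (SD, n = 8 each). Neutrophil markers reached 27412 CPM in 1 library of day 7 and 5504 CPM in 1 library of day 4, and were at most 569 CPM in the others. The part of these shifts in the results was not tested, except where a value is given below. In bulk libraries fewer cells of a type and less RNA per cell cannot be told apart.

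On day 1 after DNL919, transcripts of 5 of the 9 enzymes fell against ATV:DNP02 and 1 rose. Acads, Acsl1 and Acox3 fell the most, by 2.95-fold, 2.57-fold and 2.17-fold, and Acadm and Hadha fell less. Hadhb rose, but only just past the threshold. Cpt1a, Cpt2 and Acadvl did not pass the test. Over all genes tested, 15% fell and 20.8% rose in this comparison (limma-voom, Benjamini-Hochberg adjusted p under 0.05). The median log2 fold change of the 9 genes was -0.69, and that of all genes tested was 0.015. Together the 9 genes took 0.0275% to 0.0450% of all counts in ATV:DNP02 and 0.0162% to 0.0350% on DNL919 day 1, so these ranges overlapped.

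**Figure D1:**
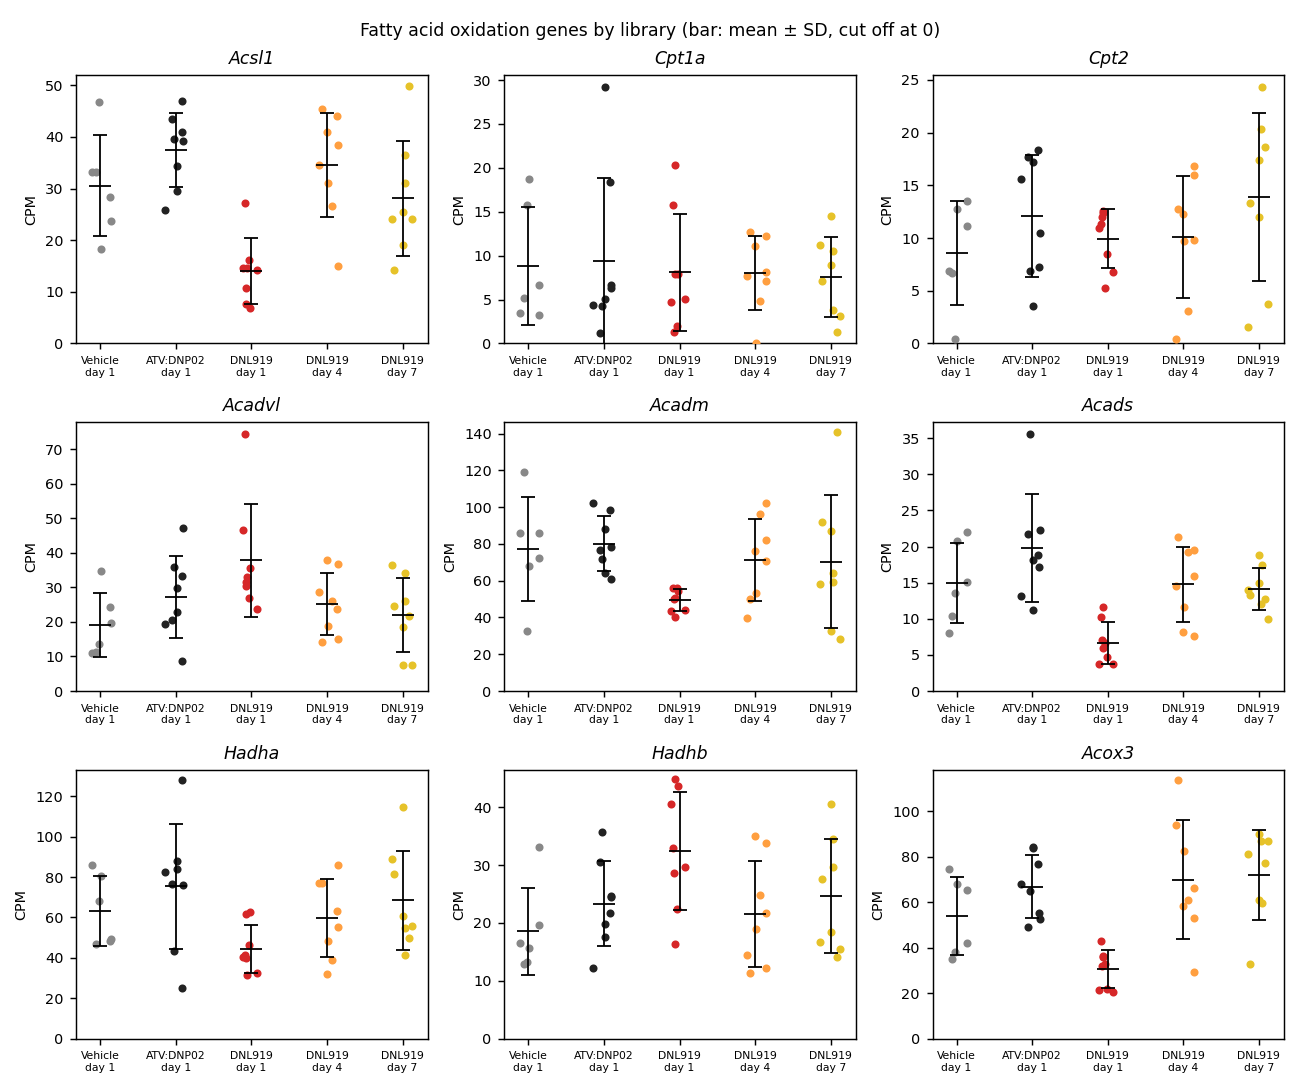
Level of each of the 9 genes in CPM (vertical axis) in the 38 libraries, by group, with 1 point per library and a bar for the mean and SD (cut off at 0). On DNL919 day 1 all 8 libraries of Acox3 (20.6 to 43.0 CPM) and Acadm (40.3 to 56.1 CPM) sit below all 8 ATV:DNP02 libraries (from 48.8 and 61.0 CPM upwards). The share of all genes that separate in this way was not counted, and 4007 of 11189 genes were called in this comparison.

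Acsl1 (ENSMUSG00000018796, GRCm38 chromosome 8, 46471037 to 46536051, plus strand) encodes a long-chain acyl-CoA synthetase, which activates fatty acids. It measured 25.8 CPM in the lowest, 39.4 in the median and 47.0 in the highest ATV:DNP02 library, against 6.82, 14.4 and 27.2 CPM on DNL919 day 1. All 8 DNL919 libraries lay below the ATV:DNP02 mean, and the ranges overlapped through 1 library of 27.2 CPM. The log2 fold change was -1.36 ± 0.27 (SE; limma-voom adjusted p = 6.09e-05), and the call was kept in 27 of 27 alternative settings.

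The carnitine shuttle genes were scarce in these libraries. Cpt1a (ENSMUSG00000024900, chromosome 19, 3323301 to 3385732, plus strand), which makes the acylcarnitine at the outer mitochondrial membrane, ranged from 1.18 to 29.2 CPM in ATV:DNP02 (median 5.67) and from 1.33 to 20.3 CPM on DNL919 day 1 (median 6.49). The DNL919 range lay inside that of ATV:DNP02. The fitted log2 difference was 0.22 (95% interval -0.78 to 1.22; limma-voom adjusted p = 0.773). Its sign was not stable, since 6 of 8 DNL919 libraries lay below the ATV:DNP02 mean, and edgeR and DESeq2 gave -0.49 and -0.55. Cpt2 (ENSMUSG00000028607, chromosome 4, 107903981 to 107923610, minus strand), which turns the acylcarnitine back into acyl-CoA inside the mitochondrion, ranged from 3.60 to 18.4 CPM in ATV:DNP02 and from 5.28 to 12.5 CPM on DNL919 day 1. All DNL919 libraries of Cpt2 lay within the ATV:DNP02 range, and the log2 difference was -0.07 (95% interval -0.83 to 0.70; limma-voom adjusted p = 0.911). At this depth, with 0 to 110 counts per library for Cpt1a and 1 to 89 for Cpt2, the values within each interval could not be told apart.

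Of the acyl-CoA dehydrogenases, those for short and medium chains fell and that for very long chains did not pass the test. Acads (ENSMUSG00000029545, chromosome 5, 115110299 to 115119346, minus strand), the short-chain enzyme, measured 11.2 CPM in the lowest, 18.4 in the median and 35.6 in the highest ATV:DNP02 library, against 3.72, 6.29 and 11.6 CPM on DNL919 day 1. Only the ends of the ranges met. The log2 fold change was -1.56 ± 0.31 (SE; limma-voom adjusted p = 8.23e-05), with 8 of 8 DNL919 libraries below the ATV:DNP02 mean, and the call was lost only with male libraries alone (adjusted p = 0.115) of 27 settings.

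Acadm (ENSMUSG00000062908, chromosome 3, 153922357 to 153944632, minus strand), the medium-chain enzyme, measured 61.0 to 102 CPM in ATV:DNP02 (median 77.5) and 40.3 to 56.1 CPM on DNL919 day 1 (median 50.4). The groups did not overlap, but the share of all genes without overlap was not counted. Its log2 fold change was -0.69 ± 0.20 (SE; limma-voom adjusted p = 0.00658), and it too lost its call only with male libraries alone (adjusted p = 0.190).

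Acadvl (ENSMUSG00000018574, chromosome 11, 70010183 to 70015411, minus strand), the very-long-chain enzyme, measured 8.54 to 47.1 CPM in ATV:DNP02 (median 26.3) and 23.6 to 74.5 CPM on DNL919 day 1 (median 32.2). The ranges overlapped widely, and 6 of 8 DNL919 libraries lay above the ATV:DNP02 mean. The log2 difference of 0.47 (95% interval -0.07 to 1.00) did not pass the test (limma-voom adjusted p = 0.175). With the share of noncoding counts as a further term, chosen after seeing the data, its sign turned to -0.53, or to -0.75 with the share of long noncoding counts alone. Both shares differed by group, with means of 9.64% and 7.00% in ATV:DNP02 and 5.11% and 3.34% on DNL919 day 1. Such a term can therefore take up part of the group difference, and the 2 cannot be fully told apart. Acadvl shares 2119 bases with Dvl2 on the opposite strand (634 counts in all libraries, against 3260 for Acadvl), and whether strand was used in counting is not given in the sources used here.

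Within a library the very-long-chain and short-chain dehydrogenases could be set against each other without any scaling between libraries. Acadvl had 2.62 to 12.5 counts per count of Acads on DNL919 day 1 (median 5.93), against 0.45 to 2.12 in ATV:DNP02 (median 1.57) and 1.00 to 1.67 in Vehicle (median 1.20). Every DNL919 day 1 library lay above every day 1 control library. The ratio was 0.66 to 4.80 on day 4 (median 1.49) and 0.50 to 2.83 on day 7, ranges that overlap those of the controls. This ratio was chosen with the single genes' values known and is a description with no test. Acads had only 11 to 72 counts per library on DNL919 day 1. The ratios of both genes to Acadm overlapped those of ATV:DNP02. Acadvl to Acadm was 0.48 to 1.33 on DNL919 day 1 and 0.087 to 0.60 in ATV:DNP02. Acads to Acadm was 0.085 to 0.23 on DNL919 day 1 and 0.13 to 0.495 in ATV:DNP02.

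Hadha (ENSMUSG00000025745, chromosome 5, 30118304 to 30155162, minus strand) and Hadhb (ENSMUSG00000059447, chromosome 5, 30155248 to 30184593, plus strand) encode the alpha and beta subunits of the trifunctional protein, which work in 1 complex. The genes lie head to head, with annotated starts 86 bases apart. Hadha measured 24.9 CPM in the lowest, 79.6 in the median and 128 in the highest ATV:DNP02 library, against 31.4, 41.0 and 62.8 CPM on DNL919 day 1. All 8 DNL919 libraries lay below the ATV:DNP02 mean, within a range that overlapped the controls through 2 low control libraries. The log2 fold change was -0.71 ± 0.24 (SE; limma-voom adjusted p = 0.0188). The call was lost without replicate 5 of ATV:DNP02 (adjusted p = 0.0603), with male libraries alone (adjusted p = 0.261), and with either noncoding term (log2 fold changes of -0.27 and -0.18).

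Hadhb went the other way. It measured 12.2 CPM in the lowest, 23.1 in the median and 35.6 in the highest ATV:DNP02 library, against 16.3, 31.3 and 44.8 CPM on DNL919 day 1, and the ranges overlapped for most libraries. The log2 fold change was 0.54 ± 0.22 (SE; limma-voom adjusted p = 0.0491), with 6 of 8 DNL919 libraries above the ATV:DNP02 mean. This call was kept in 3 of 27 alternative settings. It was lost with edgeR's quasi-likelihood test (adjusted p = 0.190), with DESeq2 (adjusted p = 0.173) and when 1 library was left out, for 14 of the 16 (all but replicate 8 of DNL919 day 1 and replicate 7 of ATV:DNP02). With the noncoding or long noncoding term the value was -0.01 or -0.22.

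Within libraries Hadha had 0.70 to 3.78 counts per count of Hadhb on DNL919 day 1 (median 1.33), against 1.02 to 6.80 in ATV:DNP02 (median 3.67) and 1.45 to 5.17 in Vehicle (median 4.39). The ranges overlapped. Across the 38 libraries, which share batches and differ in depth, log2 CPM of the subunits had a Pearson r of -0.47, and of -0.44 once group and batch means were taken out, the lowest of the 36 pairs of the 9 genes in that residual. Both are descriptions with no test.

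**Figure D2:**
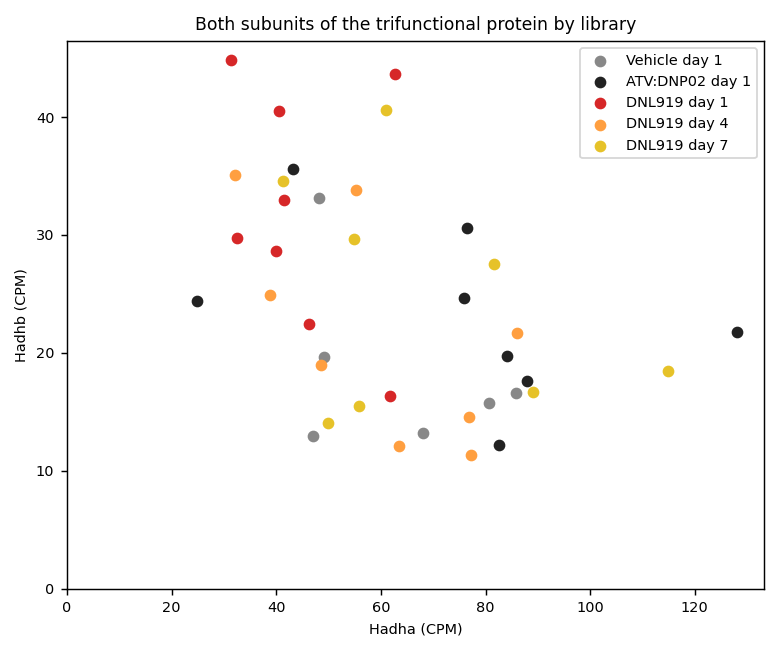
Hadhb (vertical axis, CPM) against Hadha (horizontal axis, CPM), with 1 point for each of the 38 libraries, coloured by group. The DNL919 day 1 libraries lie at 31.4 to 62.8 CPM of Hadha and 16.3 to 44.8 CPM of Hadhb, overlapping libraries of the other groups.

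**Figure D3:**
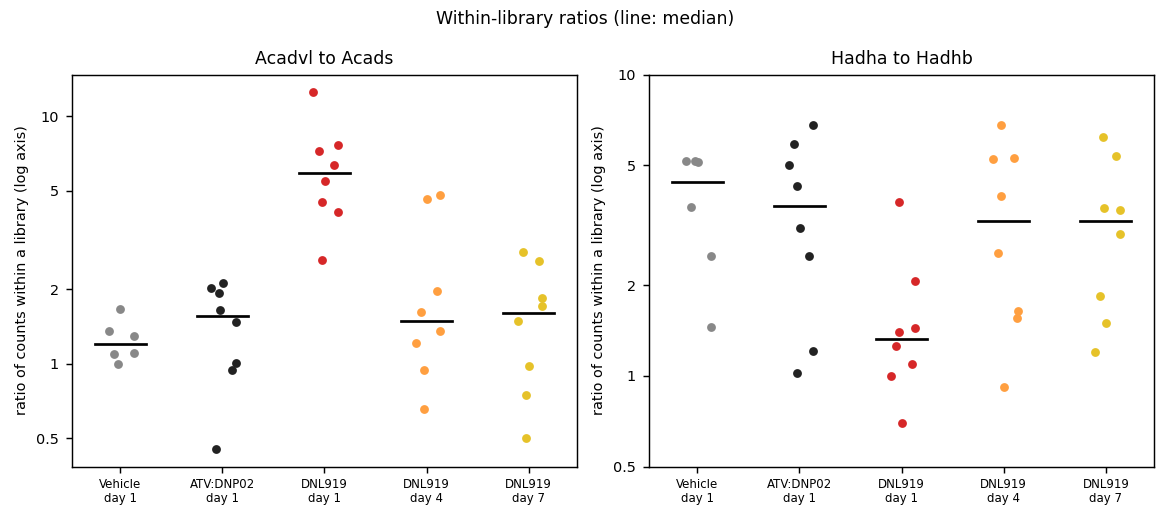
Counts of Acadvl per count of Acads (left) and of Hadha per count of Hadhb (right) within each library, on log axes, with 1 point per library and a line at the group's median. The left ratio on DNL919 day 1 (2.62 to 12.5) stands above both day 1 control groups, while the right ratio (0.70 to 3.78) overlaps them.

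The start regions are shown for the subunit pair, whose windows overlap, and for the 3 genes with the largest falls. Each is the RefSeq window of 300 bases (250 before and 50 from the start on, build GRCm38.p6), 5′ to 3′ on the gene's own strand, with capitals for each GC box (GGGCGG on either strand). The Hadhb window shares 228 bases with that of Hadha, whose RefSeq start lies 273 bases from that of Hadhb.
Hadhb, chr5:30155003-30155302, plus strand: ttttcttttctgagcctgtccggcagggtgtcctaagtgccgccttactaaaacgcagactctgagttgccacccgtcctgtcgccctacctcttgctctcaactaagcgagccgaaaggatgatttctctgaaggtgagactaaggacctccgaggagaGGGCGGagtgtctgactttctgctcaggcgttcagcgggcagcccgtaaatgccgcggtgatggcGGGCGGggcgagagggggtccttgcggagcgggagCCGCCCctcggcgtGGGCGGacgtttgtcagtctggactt
Hadha, chr5:30154931-30155230, minus strand: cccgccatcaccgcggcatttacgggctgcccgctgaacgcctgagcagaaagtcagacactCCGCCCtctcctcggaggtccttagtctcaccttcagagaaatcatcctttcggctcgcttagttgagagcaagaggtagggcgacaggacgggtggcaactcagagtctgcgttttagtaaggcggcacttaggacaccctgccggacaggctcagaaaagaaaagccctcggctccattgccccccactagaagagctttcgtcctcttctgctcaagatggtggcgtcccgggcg
Acads, chr5:115119297-115119596, minus strand: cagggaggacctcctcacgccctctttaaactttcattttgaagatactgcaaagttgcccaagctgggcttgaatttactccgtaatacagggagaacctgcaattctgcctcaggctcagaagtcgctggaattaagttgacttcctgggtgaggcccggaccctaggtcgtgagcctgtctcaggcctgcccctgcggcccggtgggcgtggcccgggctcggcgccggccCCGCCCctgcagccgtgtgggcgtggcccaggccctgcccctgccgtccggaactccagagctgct
Acsl1, chr8:46470787-46471086, plus strand: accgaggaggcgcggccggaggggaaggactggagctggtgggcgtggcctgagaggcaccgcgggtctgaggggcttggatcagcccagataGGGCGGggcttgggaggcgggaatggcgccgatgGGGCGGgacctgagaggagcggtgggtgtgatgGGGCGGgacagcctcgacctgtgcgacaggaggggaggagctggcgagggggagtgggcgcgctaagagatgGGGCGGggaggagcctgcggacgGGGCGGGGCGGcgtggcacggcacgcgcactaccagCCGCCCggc
Acox3, chr5:35582784-35583083, plus strand: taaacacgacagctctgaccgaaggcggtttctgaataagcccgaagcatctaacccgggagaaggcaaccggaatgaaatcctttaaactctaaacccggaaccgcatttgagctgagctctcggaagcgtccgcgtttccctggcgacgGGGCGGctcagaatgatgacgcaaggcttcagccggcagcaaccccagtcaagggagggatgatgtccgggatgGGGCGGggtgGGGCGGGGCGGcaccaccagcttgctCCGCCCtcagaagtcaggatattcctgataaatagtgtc
All 9 genes matched a window, Acsl1 with 2 of them. The GC box was in a window of 7 of the 9 genes, against 35.7% of the 32851 windows of the same length. The only GC box of Hadha is the same site as that at -90 of Hadhb, within the bases both windows share. The 9 were counted by gene and the background by window. Besides the GC box, 4 motifs were searched on both strands. The nuclear receptor half-site AGGTCA was in the windows of Cpt1a, Acadm and Acadvl (16.3% of all windows) and the CCAAT box (CCAAT) in those of Cpt1a and Acsl1 (37.4%). The estrogen-related receptor site TCAAGGTCA, which contains the half-site, and the cyclic AMP response element TGACGTCA were in none of the 9 (0.423% and 1.79% of all windows). A match of letters is no measured binding site.

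Acox3 (ENSMUSG00000029098, chromosome 5, 35583040 to 35615352, plus strand) encodes a peroxisomal acyl-CoA oxidase for branched-chain substrates. It measured 48.8 CPM in the lowest, 66.4 in the median and 84.1 in the highest ATV:DNP02 library, against 20.6, 32.5 and 43.0 CPM on DNL919 day 1. The groups did not overlap, but the share of all genes without overlap was not counted. The log2 fold change was -1.12 ± 0.22 (SE; limma-voom adjusted p = 6.23e-05), and the call was kept in 27 of 27 alternative settings, from -0.83 with the long noncoding term to -1.26 without replicate 1 of DNL919 day 1.

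Within the 4 batches, the day 1 difference from ATV:DNP02 was negative in all 4 for Acsl1 (-1.95 to -0.92), Acox3 (-1.48 to -0.91), Acads (-2.27 to -1.06) and Acadm (-0.81 to -0.53), in log2 CPM. It was negative in 3 of 4 batches for Hadha (-1.33 to 0.03) and positive in 3 of 4 for Hadhb (-0.30 to 1.01) and Acadvl (-0.27 to 1.55). A sex difference in the day 1 response was called for 0 of the 9 genes (limma-voom; 0 at unadjusted p under 0.05; 0 by edgeR and DESeq2) and for 0% of all genes (609 at unadjusted p under 0.05, 0 by edgeR, 8 by DESeq2). The interval of that difference reached from -1.01 to 1.18 for Acsl1.

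Against Vehicle, the same 8 DNL919 day 1 libraries showed lower Acads, Acsl1 and Acox3 and higher Acadvl and Hadhb. These calls, 3 lower and 2 higher, compare with 14.4% of all genes lower and 19% higher, and the median log2 fold change of the 9 genes was -0.50 against 0.034 for all genes. Since the DNL919 libraries are shared with the comparison above, the values are given side by side and are no independent repeat.

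Vehicle libraries of Acads spanned 8.01 to 22.0 CPM (median 14.4), and the log2 fold change was -1.22 ± 0.35 (SE; limma-voom adjusted p = 0.00618). Acsl1 spanned 18.3 to 46.8 CPM in Vehicle (median 30.7), with a fitted log2 change of -0.98 ± 0.29 (SE; limma-voom adjusted p = 0.0081), and Acox3 35.2 to 74.4 CPM (median 53.8), with -0.65 ± 0.25 (SE; adjusted p = 0.0358). For all 3 genes 8 of 8 DNL919 libraries lay below the Vehicle mean, but the ranges overlapped.

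Acadvl spanned 10.9 to 34.8 CPM in Vehicle (median 16.6), and 2 of its 6 libraries lay within the DNL919 day 1 range of 23.6 to 74.5 CPM, with a fitted log2 change of 0.90 ± 0.34 (SE; limma-voom adjusted p = 0.034) and 8 of 8 DNL919 libraries above the Vehicle mean. This call was kept in 13 of 25 settings, was lost with library totals alone and with either sex alone, and its sign turned to -0.25 and -0.46 with the noncoding and long noncoding terms. Hadhb spanned 12.9 to 33.1 CPM (median 16.2), with 0.77 ± 0.27 (SE; limma-voom adjusted p = 0.0234) and 7 of 8 libraries above. The Hadhb call was kept in 14 of 25 settings and was lost with edgeR (adjusted p = 0.0589), with no batch term, with library totals alone and with either sex alone, and its sign turned to -0.17 with the long noncoding term. Acadm and Hadha were at -0.54 and -0.50 and did not pass the test (adjusted p = 0.059 and 0.149). Of the 9 genes, 0 were called with male libraries alone or with the long noncoding term, 1 with the noncoding term, and 2 without replicate 3 of DNL919 day 1. Over all genes the calls also fell, from 3740 of 11189 to 769 of 11333 with male libraries alone. The calls over all genes were 1602 with the long noncoding term, 2076 with the noncoding term and 3331 without that replicate. Leaving out 1 library ended the Acsl1 call for Vehicle replicate 6 (limma-voom adjusted p = 0.0504), and the Hadhb call for Vehicle replicates 1, 5 and 6 and DNL919 replicate 3. The Acox3 call was lost without Vehicle replicate 1, 2 or 3 or DNL919 replicate 3, 6 or 7. The Acadvl call was lost without Vehicle replicate 2, 3, 4, 5 or 6 or DNL919 replicate 3 or 5, the last of which held the highest Acadvl level and left 0.62 (adjusted p = 0.121).

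ATV:DNP02 and Vehicle differed for 0 of the 9 genes (limma-voom; 0 at unadjusted p under 0.05; 0 by edgeR and DESeq2). Of all genes, 0% were called higher and 0% lower (498 at unadjusted p under 0.05, 0 by edgeR, 2 by DESeq2). The fitted log2 differences of the 9 genes ran from -0.60 for Cpt1a to 0.47 for Acox3, whose interval reached from -0.01 to 0.95. Their median was 0.34, against 0.0031 for all genes tested. After DNL919 on day 1, the falls of Acads, Acsl1 and Acox3 were smaller against Vehicle than against ATV:DNP02.

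By day 4 after DNL919, 0 of the 9 genes were called against ATV:DNP02 of day 1 in either direction, and the same held on day 7 (limma-voom; 0 at unadjusted p under 0.05 and 0 by edgeR and DESeq2 on either day). Of all genes, 1.58% were higher and 0.223% lower on day 4, and 1.3% and 0.206% on day 7. The median log2 fold change of the 9 genes was -0.10 on both days, against 0.032 and 0.038 for all genes. Both days share the ATV:DNP02 libraries with the day 1 comparison. These counts stayed at 0 without any 1 library, those with high neutrophil markers included.

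Acads had the lowest fitted value of the 9 on both days, at 7.68 to 21.4 CPM on day 4 (median 15.2) and 9.92 to 18.8 CPM on day 7 (median 13.6). Both ranges lay mostly inside that of ATV:DNP02. Its log2 differences were -0.52 (95% interval -1.10 to 0.06) and -0.46 (-1.05 to 0.13), with 7 of 8 and 8 of 8 libraries below the ATV:DNP02 mean (limma-voom adjusted p = 0.474 and 0.593). Acsl1 measured 15.1 to 45.4 CPM on day 4 (median 36.5) and 14.3 to 49.9 CPM on day 7 (median 24.8), with log2 differences of -0.14 and -0.43. Acox3 measured 29.2 to 114 CPM (median 63.6) and 32.7 to 89.9 CPM (median 79.2), with -0.03 and 0.07. The other 6 genes lay between -0.32 and 0.39 on both days.

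**Figure D4:**
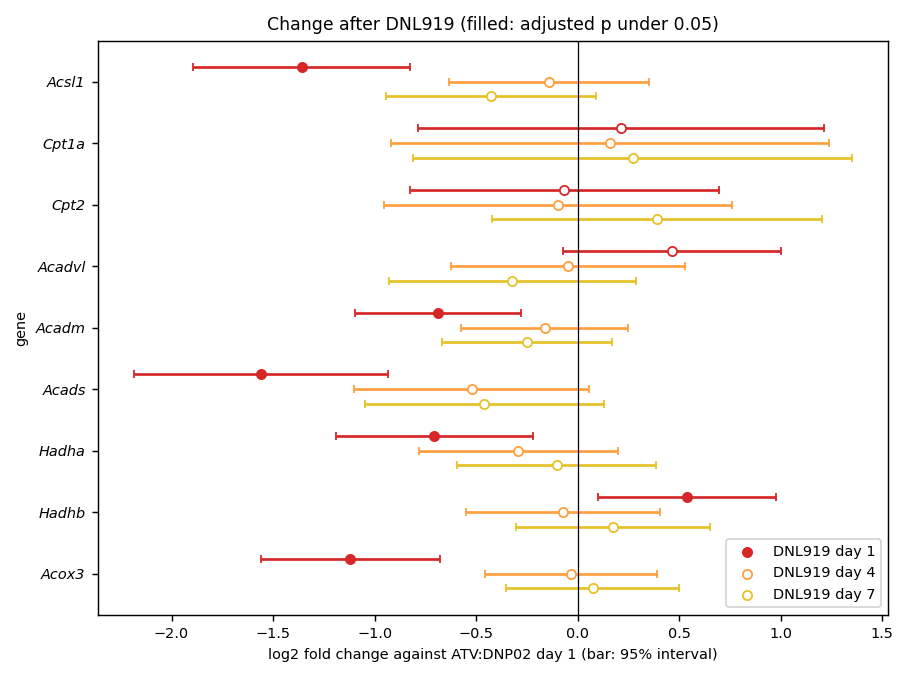
Log2 fold change (horizontal axis) of each gene on days 1, 4 and 7 after DNL919 against ATV:DNP02 of day 1, with 95% intervals. Filled points passed an adjusted p under 0.05, which 6 genes did on day 1 and 0 on days 4 and 7.

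The change between days was also tested directly. From day 1 to day 4, Acsl1 rose by 1.22 ± 0.27 on the log2 scale (SE; limma-voom adjusted p = 0.000352), Acox3 by 1.09 ± 0.22 (adjusted p = 0.000113), Acads by 1.04 ± 0.32 (adjusted p = 0.0101) and Acadm by 0.52 ± 0.20 (adjusted p = 0.0445). Hadhb fell by 0.61 on this scale (SE 0.22; adjusted p = 0.0287). These 4 higher and 1 lower calls compare with 13.8% of all genes higher and 18.1% lower. They share the DNL919 day 1 libraries with the comparisons above. The Acox3 call was kept in 27 of 27 settings and that of Acadm in 12 of 27, being lost for 11 of the 16 libraries left out. The Hadhb call was kept in 17 of 27 settings. It was lost with edgeR, with no batch term, with either sex alone and with either noncoding term. It was also lost without replicate 1 or 3 of DNL919 day 1 or replicate 3 or 6 of day 4. The number of calls fell from 5 to 3 without replicate 1 or 3 of DNL919 day 1 or replicate 3 of day 4. Over all genes the calls went from 3569 to 3219, 3175 and 3324 in these fits. From day 4 to day 7, 0 of the 9 genes were called (limma-voom; 0 at unadjusted p under 0.05; 0 by edgeR and DESeq2), and 0% of all genes higher and 0% lower (483 at unadjusted p under 0.05, 0 by edgeR, 1 by DESeq2).

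Of 63 other genes of fatty acid oxidation and its supply, in 5 lists, 50 were tested. On day 1 against ATV:DNP02, 5 were higher and 6 lower, where 20.8% of all genes were higher and 15% lower, and the median log2 fold change was -0.03. Against Vehicle 5 were higher and 4 lower (19% and 14.4% of all genes), and from day 1 to day 4 the counts were 4 and 4 (13.8% and 18.1% of all genes). Nothing particular to these lists can be read from the counts. The 13 genes not tested had too few counts, and Cpt1b, the muscle form of Cpt1a, and Ppara, a nuclear receptor that drives these genes in liver, had no count in any library.

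Triglyceride lipolysis and droplet proteins had 3 of 8 tested genes lower and 0 higher on day 1 against ATV:DNP02 (all genes, 15% lower and 20.8% higher). The 3 were the lipases that act in turn on stored triglyceride. Pnpla2, which removes the first fatty acid, measured 16.0 to 49.3 CPM in ATV:DNP02 (median 31.5) and 5.99 to 31.9 CPM on DNL919 day 1 (median 13.6), or -1.16 ± 0.29 on the log2 scale (SE; limma-voom adjusted p = 0.00122). Lipe, which acts on diglyceride, went from a median of 22.7 to 7.04 CPM (-1.54, adjusted p = 0.000222). Mgll, which acts on monoglyceride, went from a median of 58.6 to 23.2 CPM (-1.24, adjusted p = 3.08e-05). These ranges overlapped in Pnpla2 and Mgll but not in Lipe, where the lowest ATV:DNP02 library held 13.6 CPM and the highest DNL919 library 13.2 CPM. The share of all genes without overlap was not counted. All 3 were again higher on day 4 than on day 1 and were not called against ATV:DNP02 on day 4 or 7.

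The mitochondrial beta-oxidation list had 2 of 15 tested genes higher and 0 lower, fewer in either direction than the 20.8% and 15% of all genes. Etfa, a subunit of the flavoprotein that takes electrons from the acyl-CoA dehydrogenases, measured 44.0 to 102 CPM in ATV:DNP02 (median 77.5) and 102 to 191 CPM on DNL919 day 1 (median 149). Its log2 fold change was 1.09 ± 0.19 (SE; limma-voom adjusted p = 1.03e-05). Eci1, an isomerase for unsaturated fatty acids, went from a median of 29.4 to 56.5 CPM (0.87, adjusted p = 0.00651).

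In the activation and carnitine list 2 of 10 tested genes were higher and 1 lower, near the 20.8% and 15% of all genes. The synthetase Acsl5 went from a median of 35.2 to 53.0 CPM (0.64, limma-voom adjusted p = 0.0394), and Crat, which makes short acylcarnitines, from 31.3 to 13.3 CPM (-0.95, adjusted p = 0.0189). Acsl3, a synthetase at lipid droplets, rose from a median of 0.486 to 4.42 CPM (2.35 ± 0.65, SE; adjusted p = 0.00362) and was the 1 gene of the 50 called on day 7, but Vehicle libraries held 1.70 to 4.58 CPM of it. The peroxisomal list, which leaves out Acox3, had 0 of 13 higher and 1 lower (all genes, 20.8% and 15%). This was Pecr (-0.70, adjusted p = 0.00573), a reductase of trans-enoyl-CoA. Of the 4 regulators tested, too few to set against those shares, Prkaa1, the catalytic subunit alpha 1 of AMP-activated kinase, was higher (0.91, adjusted p = 0.0214) and Rxra, a nuclear receptor partner, lower (-1.48, adjusted p = 0.0272).

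**Figure D5:**
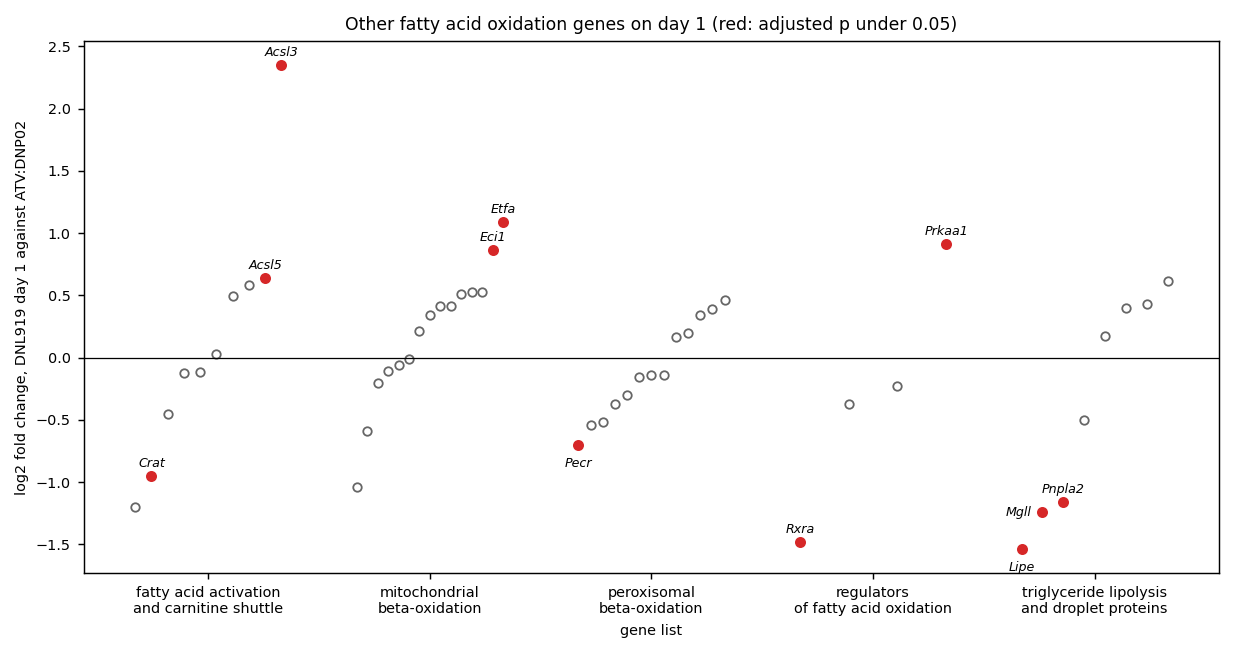
Log2 fold change on DNL919 day 1 against ATV:DNP02 (vertical axis) of the 50 tested genes in 5 lists (horizontal axis), with 1 point per gene, ordered by value within a list. Red points, with names, are the 5 higher and 6 lower genes with an adjusted p under 0.05.

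The genes most like each of the 9, by Pearson r of log2 CPM over the 38 libraries, which share groups and batches, were found among the 11189 tested. Acads was most like Slc40a1 (r = 0.82) and Ltc4s (0.76), Hadhb most like Nudt9 and Crtap (0.80 each), Acox3 most like Rbm5 (0.77) and Nav2 (0.76), and Acsl1 most like Kmt2e and Fcho2 (0.74 each). Acadvl was most like Slc35a4 (0.75), Cpt1a most like Tmem63a (0.73) and Clstn1 (0.72), and Acadm most like Tnfrsf13b (0.71) and Fam49b (0.68). Hadha had RP23-262I17.3 (0.69) and Dstyk (0.66), and Cpt2 had Pdcd2l (0.62) and Clpb (0.61). None of the 9 genes was among the most alike of another. Among the 9, Acsl1, Acox3 and Acads were the most alike (r = 0.60 to 0.65), and Acox3 and Hadhb the least (r = -0.53). Once group and batch means were taken out, the pairs of Acsl1, Acox3 and Acads had r of 0.13 to 0.30. Cpt2 and Acadm were then the most alike (r = 0.45).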

How the data were processed

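Sorted microglia were profiled with a 3′ polyadenylated RNA kit (SMARTSeq v4 3′ DE). The submitters' processing notes name STAR, featureCounts, Subread 1.6.2, edgeR and GRCm38.p6. Strand use and molecular identifiers are not given in the sources used here. The deposited counts of 100 or more had been rounded by the authors to 2 significant digits, which touches 124 of the 342 values of the 9 genes. The deposited normalized signal (CPM scaled by the authors) was not used for tests, and the scaling ratio listed by the authors per library served in 1 alternative. The library size listed by the authors, another deposited column, entered no test, and totals were summed from the counts.

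Counts were filtered with filterByExpr (minimum count 10, total 15, proportion 0.7), scaled by TMM and fitted across all 38 libraries with limma-voom (versions: R 4.3.3, edgeR 4.0.16, limma 3.58.1), group and batch as terms, two-sided, with adjusted p under 0.05 as the threshold over 11189 genes. Log2 CPM used a prior count of 2. The fit was tested on simulated data. Alternatives were edgeR's quasi-likelihood test, DESeq2 1.42.0, other scaling, filter, batch and sample choices, and leaving out each library. The terms for the noncoding share (all genes that are not protein coding, tried first) and the long noncoding share (tried after the first result was seen) were added after seeing the data. Both shares differed between the groups, so these terms can take up part of a group difference. Values of all 9 genes are reported. Other named genes were the up to 6 largest rises and 6 largest falls among called genes of the wider lists, and the 2 genes most like each of the 9, of which 1 is not reported here. The genes, lists and tests were chosen with earlier results of these data known.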

Additional observations from a re-analysis of the deposited data

Results flagged for a closer look

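Of 45 combinations of a gene and a group, 4 had 1 library far from the rest by Dixon's criterion at the 95% level, and chance flags about 1 in 20. On DNL919 day 1, replicate 5 held the highest level of Acsl1 (27.2 CPM, next 16.2 CPM) and of Acadvl (74.5 CPM, next 46.7 CPM). In ATV:DNP02, replicate 2 held 35.6 CPM of Acads (next 22.3 CPM). In Vehicle, replicate 4 held 33.1 CPM of Hadhb (next 19.6 CPM).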

How the results depend on the processing

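The calls of Acsl1 and Acox3 on day 1 against ATV:DNP02 kept their direction and their side of the threshold in all 27 alternatives. The number of the 9 genes called on day 1 against ATV:DNP02 was 6, and was 5 with female and 2 with male libraries alone. Against Vehicle it was 5, and was 3 with female and 0 with male libraries alone, 1 with the noncoding and 0 with the long noncoding term, and 2 to 6 without 1 library each. For day 4 against day 1 it was 5, and was 3 with edgeR, with no batch term and with female libraries alone, 1 with male libraries alone, and 3 to 5 without 1 library each. Calls over all genes fell too. Against Vehicle they went from 3740 to 2947 with female and 769 with male libraries alone. With the noncoding and long noncoding terms they were 2076 and 1602. For day 4 against day 1 they went from 3569 to 2942 with edgeR and 3242 with no batch term. With female libraries alone they were 2858 there, and with male libraries alone 647. The cause was not tested. Scaling by library totals alone moved the median log2 fold change of all genes on day 1 against ATV:DNP02 from 0.015 to -0.097. Without the low-count filter 10678 genes were called there, against 4007, of 25246 tested, and 24.9% of them were higher, against 58.1%; with male libraries alone 956 were called and with female libraries alone 3556. Cpt1a and Cpt2 had few counts. No paired analysis was possible because the labels give no replicate numbers, so the numbers used here only name libraries, and batch is a term of the fit instead.

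Signs turned in other fits as follows (log2 fold changes). With edgeR, the turned values were day 7 against day 4 Acads -0.066, Cpt1a -0.16, day 4 against ATV:DNP02 Acox3 0.039, Cpt1a -0.45, ATV:DNP02 against Vehicle Cpt1a 0.34, day 1 against ATV:DNP02 Cpt1a -0.49, day 4 against day 1 Cpt1a 0.037, day 7 against ATV:DNP02 Cpt1a -0.61, males minus females Hadha -0.19. With DESeq2, the turned values were males minus females Acadm -0.013, Hadha -0.21, day 7 against day 4 Acads -0.044, Cpt1a -0.14, day 4 against ATV:DNP02 Acox3 0.013, Cpt1a -0.50, ATV:DNP02 against Vehicle Cpt1a 0.36, day 1 against ATV:DNP02 Cpt1a -0.55, day 4 against day 1 Cpt1a 0.052, day 7 against ATV:DNP02 Cpt1a -0.64. With no batch term, the turned values were day 1 against ATV:DNP02 Cpt1a -0.0061, day 4 against ATV:DNP02 Cpt1a -0.16, day 7 against ATV:DNP02 Cpt1a -0.017, males minus females Hadha -0.015. With the authors' scaling factors, the turned values were males minus females Hadha -0.0033. With only the 2 groups compared, the turned values were day 1 against ATV:DNP02 Cpt1a -0.094, day 4 against ATV:DNP02 Cpt1a -0.042, day 4 against day 1 Cpt1a 0.18, Cpt2 0.065. With female libraries alone, the turned values were day 4 against ATV:DNP02 Acadm 0.098, Cpt2 0.47, Hadhb 0.15, day 7 against ATV:DNP02 Acadm 0.20, Acox3 -0.25, Cpt1a -0.26, day 7 against day 4 Acadm 0.10, Cpt1a -0.77, day 1 against ATV:DNP02 Cpt1a -0.15, Cpt2 0.20, day 4 against day 1 Cpt1a 0.66, Cpt2 0.27, ATV:DNP02 against Vehicle Cpt2 -0.50, day 1 against Vehicle Cpt2 -0.30. With male libraries alone, the turned values were day 7 against day 4 Acads -0.27, Acadvl 0.13, day 7 against ATV:DNP02 Acadvl 0.016, Cpt2 -0.71, Hadha 0.097, Hadhb -0.14, day 4 against ATV:DNP02 Acox3 0.30, Cpt1a -0.36, Hadha 0.0067. With the noncoding term, the turned values were day 1 against ATV:DNP02 Acadvl -0.53, Hadhb -0.012, day 1 against Vehicle Acadvl -0.25, Cpt2 -0.18, Hadha 0.041, day 4 against day 1 Acadvl 0.058, Cpt2 0.28, day 4 against ATV:DNP02 Acox3 0.044, day 7 against ATV:DNP02 Hadha 0.094, Hadhb -0.087. With the long noncoding term, the turned values were day 1 against ATV:DNP02 Acadvl -0.75, Hadhb -0.22, day 1 against Vehicle Acadvl -0.46, Cpt1a 0.013, Cpt2 -0.27, Hadha 0.14, Hadhb -0.17, day 4 against day 1 Acadvl 0.019, Cpt2 0.25, day 4 against ATV:DNP02 Acox3 0.10, day 7 against ATV:DNP02 Hadha 0.19, Hadhb -0.27. Leaving out 1 library turned the sign in 1 or more fits of values that were not called, with these lowest and highest values: day 7 against day 4 Acadm -0.20 to 0.056, Acads -0.066 to 0.21, Acox3 -0.020 to 0.20, Cpt1a -0.36 to 0.28, day 4 against ATV:DNP02 Acadvl -0.29 to 0.080, Acox3 -0.16 to 0.064, Cpt1a -0.18 to 0.57, Cpt2 -0.38 to 0.10, Hadhb -0.20 to 0.021, day 7 against ATV:DNP02 Acox3 -0.000785 to 0.17, Cpt1a -0.024 to 0.58, Hadha -0.35 to 0.015, day 1 against ATV:DNP02 Cpt1a -0.063 to 0.52, Cpt2 -0.31 to 0.045, day 4 against day 1 Cpt1a -0.29 to 0.41, Cpt2 -0.22 to 0.18, ATV:DNP02 against Vehicle Hadhb -0.0047 to 0.49.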
